A study of Mus musculus with 768 samples.

Results

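DNA replication and S phase genes were followed in single cells of mouse embryoid bodies while a doxycycline-inducible cassette turned embryonic stem cells towards motor neurons. The set was defined by name as 39 symbols that encode the replication machinery and its regulators. Of these, 38 are rows of the table of 27723 genes, and ORC1, a subunit of the origin recognition complex, was skipped because its symbol is absent. The symbols were listed by the role of their genes, with no threshold on a measured value.

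All cells came from the line Ainv15(iNgn2.Isl1.Lhx3.V5), in which doxycycline switches on Ngn2, Isl1 and Lhx3, a combination known to drive pluripotent cells to a spinal motor neuron fate. Embryoid bodies formed 2 days before doxycycline was added at 3 µg/ml, and 96 viable single cells were sorted after 6, 12, 18, 24, 30, 36 or 48 h, and before it at 0 h. Each time point is 1 sample, so cells are not replicates, no test was made, and differences are described by their size. No culture without doxycycline at a later hour is used here, so hours of induction and hours of embryoid body culture cannot be told apart.

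Replication starts at origins marked by the origin recognition complex, where CDC6 and CDT1 load the ring of MCM2 to MCM7. CDC45 and the GINS proteins turn this ring into the active helicase, DNA polymerase alpha with its primase starts each strand, and polymerases delta and epsilon extend it on the PCNA clamp. Transcription of many of these genes is driven by E2F factors near the start of S phase. Mouse embryonic stem cells divide fast and spend much of their cycle in S phase, while neurons have left the cycle.

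Of 768 cells, the 368 in which at least 2000 genes were above 0 were kept. Values are TPM (transcript abundance scaled for transcript length and to a fixed total of 1000000 per cell). They keep no depth, so the reads behind a value are unknown. The kept cells held a median of 6481 to 7484 genes at 6, 18, 24 and 30 h, and of 5304, 4268.5, 2894 and 2141 genes at 0, 12, 36 and 48 h. Only 14 cells were kept at 48 h. The libraries also fell into 2 sets by SOD1, whose mean was 518 to 807 TPM at 6, 18, 24 and 30 h and 19553 to 65262 TPM at 0, 12, 36 and 48 h. Comparisons were therefore made only within these sets, called the low-SOD1 and high-SOD1 sets below. The labels tell of 2 library batches without saying which cells were in which, and whether these are the 2 sets was not tested.

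E2F and CCAAT letters were counted in the promoters of the members. RefSeq promoters (build GRCm38.p6, 250 bases before to 50 after a start site) were matched for 31 members, with 35 promoters. The letters TTTCCCGC, TTTCGCGC, TTTGCCGC and TTTGGCGC, forms of the E2F consensus, were searched on both strands. At least 1 was found in 11 of the 35 promoters (31.4%), in 2.26% of all 32851 promoters of that length, and in 4.56% of the 6862 promoters of genes that passed the expression filter of the low-SOD1 set. CCAAT, the letters bound by the factor NF-Y, stood on either strand in 20 of 35 (57.1%), against 37.4% of all promoters and 40.3% of those of passing genes. A match is a string of letters and not a mapped site.

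Promoters of 4 members are printed 5′ to 3′ on the gene's strand, with E2F and CCAAT letters in capitals (ATTGG is CCAAT on the other strand): 3 subunits of the MCM ring with matches, and the clamp PCNA, the most abundant member at 6 h, without an E2F match. They lie at chr1:20820263-20820562 (MCM3, minus strand), chr8:75109259-75109558 (MCM5, plus strand), chr1:128359656-128359955 (MCM6, minus strand) and chr2:132253131-132253430 (PCNA, minus strand).
MCM3: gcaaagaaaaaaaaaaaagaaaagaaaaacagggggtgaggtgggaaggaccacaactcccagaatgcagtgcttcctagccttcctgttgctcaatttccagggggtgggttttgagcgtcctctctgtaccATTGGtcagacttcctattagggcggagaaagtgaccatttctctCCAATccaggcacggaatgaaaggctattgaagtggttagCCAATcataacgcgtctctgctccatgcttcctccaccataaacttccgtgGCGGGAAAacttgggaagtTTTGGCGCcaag
MCM5: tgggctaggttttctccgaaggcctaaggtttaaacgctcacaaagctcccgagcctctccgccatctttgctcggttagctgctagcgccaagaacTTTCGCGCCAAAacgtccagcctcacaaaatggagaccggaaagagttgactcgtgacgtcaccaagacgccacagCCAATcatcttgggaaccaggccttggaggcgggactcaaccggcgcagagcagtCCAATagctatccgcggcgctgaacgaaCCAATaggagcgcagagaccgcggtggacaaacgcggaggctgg
MCM6: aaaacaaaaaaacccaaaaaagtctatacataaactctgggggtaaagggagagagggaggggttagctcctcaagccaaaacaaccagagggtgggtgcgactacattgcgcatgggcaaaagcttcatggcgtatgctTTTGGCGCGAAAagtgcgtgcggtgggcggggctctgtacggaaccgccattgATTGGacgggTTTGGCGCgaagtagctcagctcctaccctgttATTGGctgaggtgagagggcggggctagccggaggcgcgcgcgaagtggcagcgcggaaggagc
PCNA: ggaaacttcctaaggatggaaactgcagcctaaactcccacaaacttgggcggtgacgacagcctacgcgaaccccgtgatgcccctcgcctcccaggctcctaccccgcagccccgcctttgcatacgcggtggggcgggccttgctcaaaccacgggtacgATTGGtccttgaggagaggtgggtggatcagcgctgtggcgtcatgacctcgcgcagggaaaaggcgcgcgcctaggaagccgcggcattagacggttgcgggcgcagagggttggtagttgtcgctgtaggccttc
In the MCM5 promoter TTTCGCGC on the gene's strand overlaps TTTGGCGC read on the other strand, and the same pair of letters overlaps in the MCM6 promoter in the reverse arrangement. MCM6 has a separate TTTGGCGC nearer the start site. In MCM3 both E2F matches lie after the start site.

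Summed over the members and averaged over cells, replication transcripts were abundant before the factors acted and at the last time point. The summed TPM of the 38 members is the share of a cell's transcripts, per length, that these genes take. In the low-SOD1 set it averaged 4729 TPM at 6 h, 4054 TPM at 18 h, 4407 TPM at 24 h and 3659 TPM at 30 h. In the high-SOD1 set it averaged 4794 TPM at 0 h, 4007 TPM at 12 h, 4313 TPM at 36 h and 4635 TPM at 48 h. The mean at the later times was thus 0.774 to 0.932 of that at 6 h, and 0.836 to 0.967 of that at 0 h. The 12 h value (0.836) turned to 1.02 in cells with at least 4000 genes. Over kept cells the ratio of medians was 0.680 to 0.922 in the low-SOD1 set, against 6 h. Against 0 h it was 0.824 at 12 h, 0.835 at 36 h and 1.09 at 48 h. In the same kept cells STMN2, a neuronal microtubule regulator used as the marker of differentiation, averaged 9.57, 45.7, 132 and 124 TPM at 6, 18, 24 and 30 h. It averaged 6.06, 20.6, 229 and 179 TPM at 0, 12, 36 and 48 h.

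The spread between cells was wide and the ranges overlapped at all times. At 30 h the sum ran from 685 TPM (lowest) over 3266 TPM (median) to 8069 TPM (highest), and at 6 h from 1225 TPM over 4805 TPM to 8082 TPM. The highest cells of both times were alike, and the difference was larger towards the lower end of the distribution. The 25th percentile over cells was 2154 TPM at 30 h, against 3519 TPM at 6 h, a ratio of 0.612, while the ratio was 0.680 for the medians and 0.774 for the means. At 36 h the sum ran from 90.2 TPM to 13157 TPM, and at 48 h from 147 TPM to 8901 TPM, in cells with few detected genes. Their 0 h counterparts ran from 1998 TPM to 8634 TPM.

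**Figure D1:**
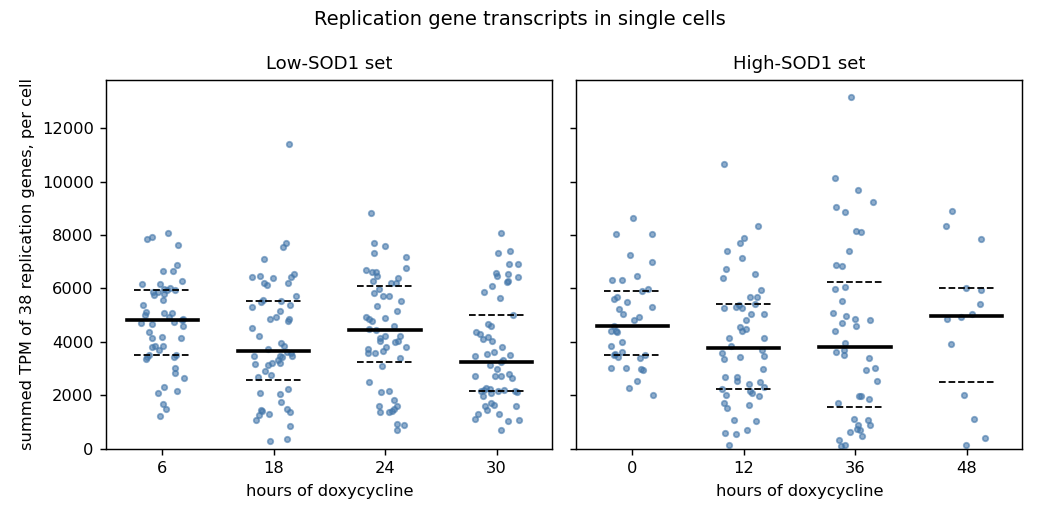
Summed TPM of the 38 replication genes (y axis) in each kept cell (points) by hours of doxycycline (x axis), low-SOD1 set on the left and high-SOD1 set on the right; thick lines are medians and dashed lines the lower and upper quartiles. The ranges overlap at all times, and at 30 h the median (3266 TPM) lies below that at 6 h (4805 TPM) although the highest cells are alike.

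Single members were measured on the log2 scale of (mean TPM + 1), later over earlier, which understates changes of low genes. A member passed the filter with an average of the 4 means of its set of at least 5 TPM and detection in at least 10% of that set's kept cells. In the low-SOD1 set 37 members passed (E2F1 did not), and in the high-SOD1 set all 38. The median of all passing genes was itself above 0 in the low-SOD1 set, at 0.09 for 18 h, 0.25 for 24 h and 0.22 for 30 h, each against 6 h, so members are also read against it.

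At 30 h against 6 h the members were shifted slightly and nearly all in 1 direction relative to other genes. Their median log2 ratio was -0.26, against 0.22 for all passing genes, and 35 of 37 lay below that all-gene median. Below 0 lay 29 of 37, against 36.1% of all genes. Only POLA2 (1 of 37) was at least 2-fold lower, against 5.29% of all genes, and no member was at least 2-fold higher, against 14.3% of all genes. The count of lower members was 2 to 4 under other settings, for which no share of all genes was counted. The median was -0.48 with all genes rescaled to a median of 0. The lower members came from several steps of replication. POLA2 (-1.64) is the accessory subunit of DNA polymerase alpha, POLE (-0.98) the catalytic subunit of polymerase epsilon, CCNE2 (-0.82) a cyclin that activates CDK2 at the start of S phase, CDC6 (-0.79) a loading factor, and RPA2 (-0.67) a subunit of the protein that coats single-stranded DNA. At the other end stood GINS3 (0.63), a subunit of the active helicase, RFC4 (0.31), a subunit of the clamp loader, and LIG1 (0.12), the ligase that joins Okazaki fragments.

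POLA2 was the member with the clearest difference. It averaged 512 ± 638 TPM at 6 h, 306 ± 1244 TPM at 18 h, 127 ± 108 TPM at 24 h and 164 ± 282 TPM at 30 h (SD over 53, 56, 55 and 57 cells of 1 sample each). At 30 h its cells ran from 0 TPM over a median of 100.1 TPM to 2011 TPM, and at 6 h from 28.5 TPM over 278 TPM to 2827 TPM. The ranges overlapped, and the 18 h mean rested on few cells, since its median there was 63.4 TPM and its highest cell had 9228 TPM. POLA2 was detected in 56 of 57 cells at 30 h and in 53 of 53 at 6 h, so nearly all cells kept some of its transcript. Its rank correlation with the sum of the other members across cells was -0.07, 0.26, 0.50 and 0.18 at 6, 18, 24 and 30 h. It also weighed on the sum: without POLA2 the mean sum at 30 h was 0.829 of that at 6 h, and at 24 h it was 1.01 of that at 6 h.

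PCNA, the sliding clamp, took the largest part of the sum in the low-SOD1 set. It averaged 588 ± 376 TPM at 6 h, 840.4 ± 759.6 TPM at 18 h, 611 ± 505 TPM at 24 h and 424 ± 419.7 TPM at 30 h. At 30 h its cells ran from 0 TPM over 342 TPM to 2121 TPM, and at 6 h from 0 TPM over 523 TPM to 1609 TPM. It was thus highest at 18 h and lowest at 30 h, in ranges that overlapped throughout. RRM2, the small subunit of ribonucleotide reductase, averaged 289, 276, 285 and 189 TPM at 6, 18, 24 and 30 h, close to each other at the first 3 times and lowest at 30 h. SLBP, which binds the stem-loop of histone mRNAs, averaged 315, 289.9, 244 and 230.1 TPM, a lower mean at each later time.

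At 30 h against 6 h the 6 ring subunits MCM2 to MCM7 had log2 ratios between -0.33 and 0.04, while several had a lower mean at 18 h. MCM7, the highest of the helicase group, averaged 217, 149, 229 and 202 TPM at 6, 18, 24 and 30 h, and MCM2 averaged 149, 81.2, 115 and 133 TPM. At 30 h against 6 h the 11 helicase members had a median log2 ratio of -0.18, and the 10 members of the clamp, loader and strand-processing group -0.12. The 3 loading factors were lower, at a median of -0.59. ORC6, the highest of them, averaged 169, 139.8, 175 and 112 TPM at 6, 18, 24 and 30 h. The 6 polymerase and primase members had a median of -0.46, the 4 enzymes of nucleotide supply -0.22, and the 3 passing regulators (CCNE1, CCNE2 and SLBP) -0.55.

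**Figure D2:**
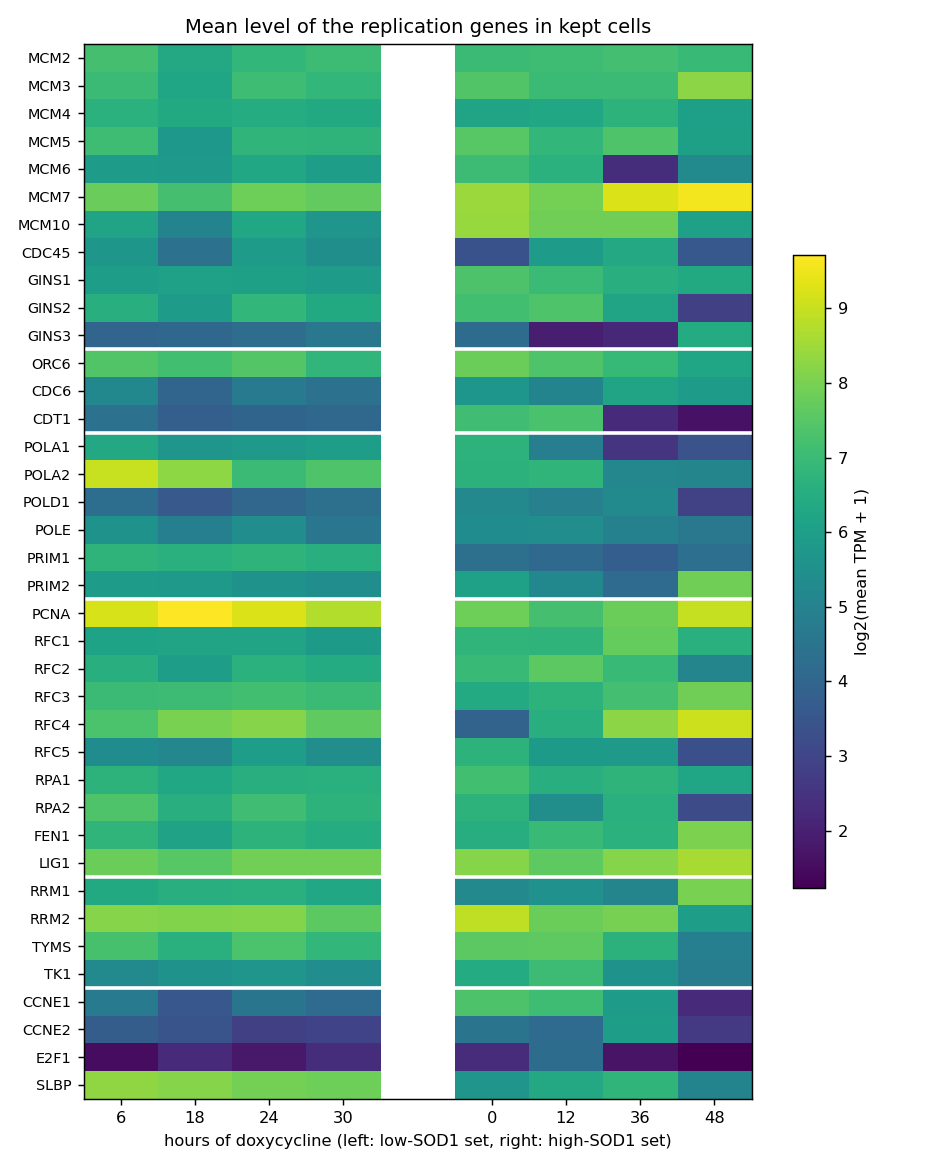
Mean level of each of the 38 replication genes, as log2(mean TPM + 1) (colour), by hours of doxycycline (columns) over kept cells, with genes in rows grouped by role and the low-SOD1 set left of the high-SOD1 set. PCNA is the highest row of the low-SOD1 set (424 to 840.4 TPM), E2F1 the lowest (1.88 to 4.06 TPM), and the contrast between times is strongest in the high-SOD1 set.

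The members did not follow a steady course between 6 h and 30 h. At 18 h against 6 h their median log2 ratio was -0.41, against 0.09 for all passing genes, with 32 of 37 below the all-gene median. In all, 5 were at least 2-fold lower, where 6.44% of all genes were: MCM5 (-1.34), CDC45 (-1.30), CCNE1 (-1.21), CDC6 (-1.18) and MCM10 (-1.11), an activator of the helicase. With no cell left out the value of MCM10 turned to 0.043. None was at least 2-fold higher, where 11.6% of all genes were, and the highest were RFC4 (0.70), PCNA (0.51) and TK1 (0.32), the thymidine kinase of the salvage pathway. MCM5 averaged 136 TPM at 6 h, 53.1 TPM at 18 h, 109 TPM at 24 h and 108 TPM at 30 h. CDC45 averaged 51.5, 20.3, 57.9 and 42.8 TPM at the same times, so that both had their lowest mean at 18 h.

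At 24 h against 6 h the median of the members was 0.02, against 0.25 for all passing genes, and 31 of 37 lay below the all-gene median. POLA2 (-2.00) alone was at least 2-fold lower, where 5.58% of all genes were, and no member was at least 2-fold higher, where 13.9% of all genes were. CCNE2 (-0.92), POLA1 (-0.56), the catalytic subunit of polymerase alpha, CDC6 (-0.46) and CDT1 (-0.44) followed, and RFC4 (0.86), RFC5 (0.62) and TK1 (0.36) stood highest. The sign of this small median turned under 4 alternatives, for example to -0.15 in cells with at least 4000 genes. The comparisons with 6 h share the 6 h cells and are not independent of each other.

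Other gene lists were set beside these shifts at 30 h against 6 h. All passing genes had a median log2 ratio of 0.22 there, with 5.29% at least 2-fold lower and 14.3% at least 2-fold higher. Of 40 further replication genes 38 passed, with a median log2 ratio of -0.07. Among them POLE4 (-1.24), an accessory subunit of polymerase epsilon, HELLS (-1.19), a chromatin remodeller, and TOPBP1 (-1.04), a replication initiation and checkpoint protein, were at least 2-fold lower, and POLD4 (1.87), a small subunit of polymerase delta, was at least 2-fold higher (10.9 TPM at 30 h and 2.25 TPM at 6 h). Of 18 mitosis genes none was past 2-fold, with a median of -0.09. Of 8 pluripotent genes 7 passed and all 7 were at least 2-fold lower (median -1.73), with a mean sum of 886 TPM at 30 h against 2809 TPM at 6 h. Of 10 pan-neuronal genes 7 of the 9 that passed were at least 2-fold higher (median 1.47), with 699 TPM at 30 h against 255 TPM at 6 h. The replication members thus differed far less than either marker list, whose own part in the members' shift was not tested. Both marker lists were chosen with earlier results of these data known, so their larger difference is no independent scale. Markers of other cell types were mostly low. At 30 h against 6 h the mean sums were 26.4 against 17.8 TPM for 6 primitive endoderm genes and 23.2 against 22.8 TPM for 4 fibroblast genes. For 4 mesoderm genes the mean sum was 50.4 against 1.20 TPM. The 30 h sum was nearly all T (Brachyury), which averaged 49.3 TPM at 30 h and 0.31 TPM at 6 h (log2 ratio 5.26). The part of T in the comparison was not tested.

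**Figure D3:**
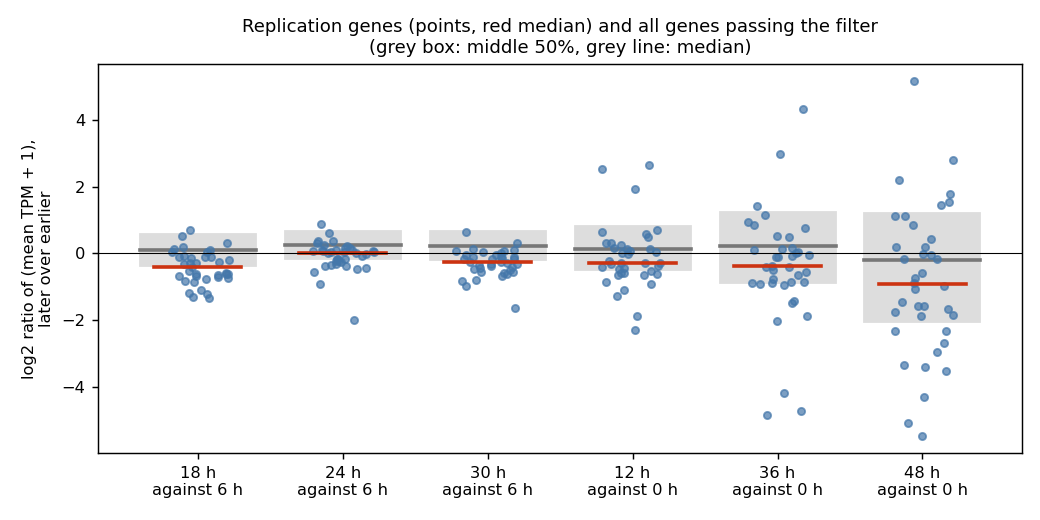
Log2 ratio of (mean TPM + 1), later over earlier (y axis), for each comparison within a set (x axis): points are replication genes that passed the filter, the red line their median, and the grey box and line the interquartile range and median of all passing genes. The red line lies below the grey line in each comparison (for example -0.26 against 0.22 at 30 h against 6 h). The points and the grey box spread much wider at 36 h and 48 h.

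The share of cells with a transcript gave a second view. At 30 h against 6 h the share of cells above 0 was at least 10 percentage points lower for 17 of 37 members, against 33.9% of all passing genes. No member was 10 points higher, where 8.41% of all genes were. The median difference was -8.81 points for the members and -4.87 points for all genes. The largest differences were in CCNE2, detected in 28.1% of cells at 30 h (exact 95% interval 17.0 to 41.5%), against 66.0% at 6 h (51.7 to 78.5%), and in CDC45, detected in 52.6% at 30 h (39.0 to 66.0%), against 84.9% at 6 h (72.4 to 93.3%). These intervals cover counting error over cells only. Because cells at 30 h had fewer detected genes (median 6481) than at 6 h (7484), shares above 0 differ with depth too.

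A measure less tied to depth asks whether a gene is among a cell's 2000 highest genes. By it 21 of 37 members were at least 10 points lower at 30 h than at 6 h, against 12.3% of all passing genes. The median difference was -12.5 points for the members and 0.43 points for all genes. GINS3 alone was over 10 points higher, where 11.2% of all genes were at least 10 points higher. RPA2 was among the 2000 highest in 59.6% of cells at 30 h and 84.9% at 6 h, MCM10 in 29.8% at 30 h and 54.7% at 6 h, POLA2 in 70.2% at 30 h and 92.5% at 6 h, and TYMS, thymidylate synthase, in 66.7% at 30 h and 88.7% at 6 h. By contrast, PCNA was there in 86.0% of cells at 30 h and 96.2% at 6 h, and MCM7 in 86.0% at 30 h and 90.6% at 6 h. Per cell, a median of 24, 18, 21 and 17 members were among the 2000 highest at 6, 18, 24 and 30 h. This measure was added after the data had been seen. As each cell gives about 2000 genes, the average over all genes is held nearly fixed by the measure itself. In cells close to the minimum of 2000 genes it comes close to detection above 0.

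**Figure D4:**
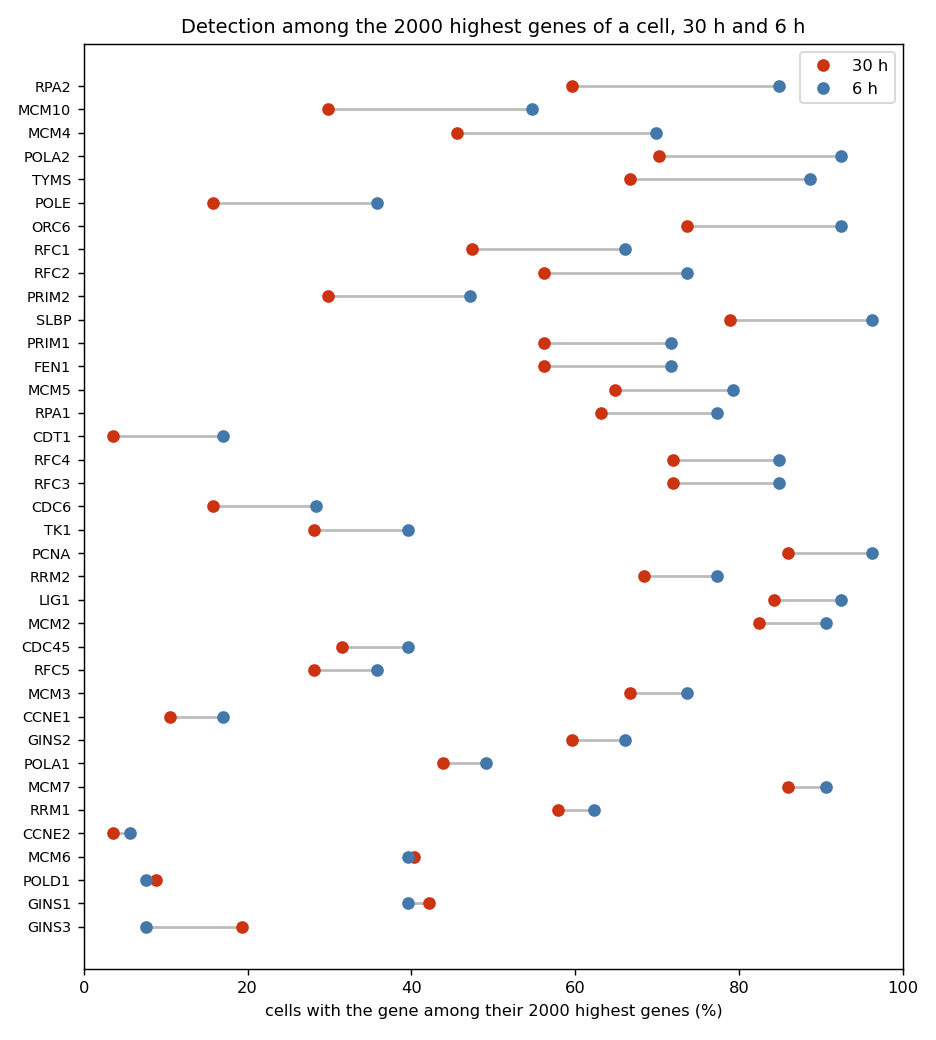
Share of kept cells (x axis, %) in which each of the 37 passing replication genes (rows) is among the cell's 2000 highest genes, at 30 h (red) and at 6 h (blue), ordered by the difference. Most red points lie left of their blue partner (RPA2 59.6% at 30 h and 84.9% at 6 h), with GINS3 over 10 points to the right.

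Across the kept cells of 1 time point, replication transcripts were lower in cells with more STMN2 late in the low-SOD1 set, but not early. The Spearman correlation of the summed TPM of the members with STMN2 was 0.26, 0.04, -0.36 and -0.21 at 6, 18, 24 and 30 h (53, 56, 55 and 57 cells). In the high-SOD1 set it was 0.28, 0.13, -0.35 and 0.02 at 0, 12, 36 and 48 h (37, 52, 44 and 14 cells). STMN2 was above 0 in 45.3%, 82.1%, 87.3% and 86.0% of cells at 6, 18, 24 and 30 h, and in 27.0% at 0 h. The values at 0 h and 6 h thus rest on many ties at 0. Cells of a time point share a library preparation and differ in depth. Given the number of genes above 0, the partial rank correlations were 0.21, 0.04, -0.36 and -0.20 at 6, 18, 24 and 30 h, and -0.19 at 36 h, where STMN2 itself was related to the number of genes (-0.41).

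At 24 h most members took part in this relation. Their correlations with STMN2 had a median of -0.18, against 0.03 for all passing genes, and 35 of 37 were below 0, against 41.5% of all genes. The most negative were ORC6 (-0.36), PCNA (-0.34), TK1 (-0.30) and MCM10 (-0.29). RPA1 (0.10), the large subunit of the single-strand binding protein, and POLA1 (0.02) were the 2 members above 0. At 30 h the median was -0.12, against 0.01 for all genes, and 31 of 37 were below 0, against 47.9% of all genes. POLE (-0.36), RFC1 (-0.34), the large subunit of the clamp loader, POLA2 (-0.32) and TK1 (-0.31) were most negative there, and GINS3 (0.20) most positive. Single correlations of this size in sparse counts are weak, and it is their common sign that is described. The members also varied together, with a median correlation with the sum of the others of 0.43 at 24 h and 0.55 at 30 h. Their signs are therefore not independent of each other. At 12 h, when only 9.62% of cells had STMN2 above 0, the median was 0.01 and 19 of 38 members were below 0, against 51.8% of all genes. At 6 h the median was 0.18, against 0.05 for all genes, and 6 of 37 members were below 0, against 36.8% of all genes.

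The cells with the most STMN2 show the same in single values. At 24 h the 10 cells with the highest STMN2 (216 to 1034 TPM) had summed replication transcripts of 874 TPM (lowest), 1876 TPM (median) and 4134 TPM (highest), all 10 below the median of 4430 TPM over the 55 cells. They held a median of 6889.5 genes, against 6676 over the 55 cells. At 30 h the 10 highest STMN2 cells (215 to 1088 TPM) had sums of 685, 2031 and 8069 TPM in the same order, 8 of them below the median of 3266 TPM. These 10 were shallower, with a median of 5818 genes, against 6481 over the 57 cells. The cell with the highest replication sum at 30 h was thus among the 10 with the most STMN2. At 6 h, when the highest STMN2 cells had 13.4 to 106 TPM, 4 of 10 lay below the median, and at 18 h 5 of 10 did (6463.5 genes, against 7347.5 over all cells of that time). This view was chosen after the values had been seen.

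The minimum of 2000 genes matters for this result. With no cell left out the median correlation of the members with STMN2 turned to 0.37 at 24 h and 0.41 at 30 h (96 cells each). All passing genes then had medians of 0.41 at 24 h and 0.39 at 30 h, and STMN2 followed the number of genes above 0 with 0.68 at 24 h and 0.58 at 30 h. The 41 cells left out at 24 h held a median of 571 genes, and STMN2 was above 0 in 4.88% of them.

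**Figure D5:**
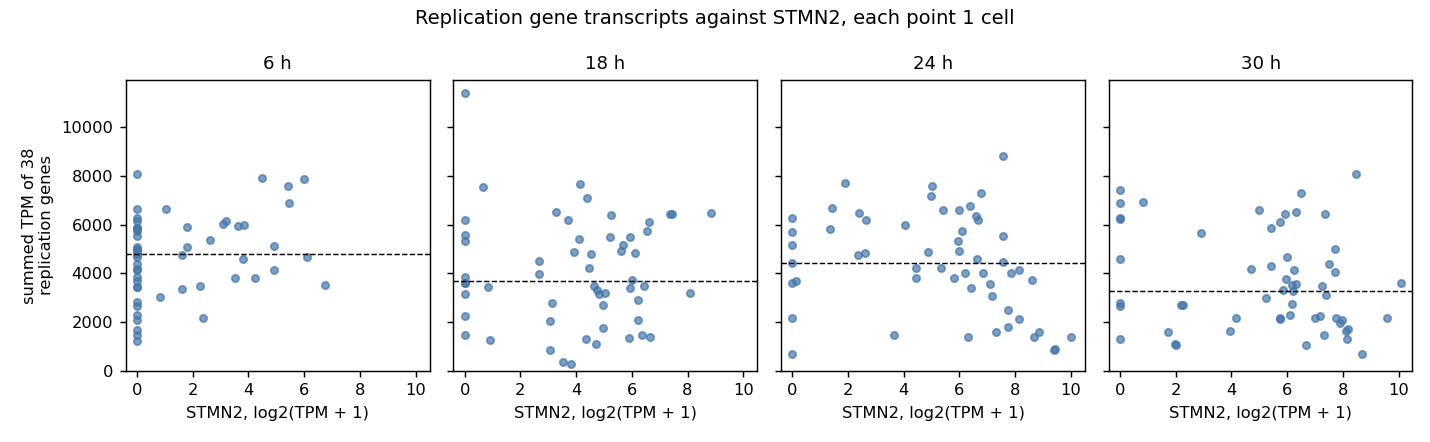
Summed TPM of the 38 replication genes (y axis) against STMN2 as log2(TPM + 1) (x axis) in each kept cell (points) at 6, 18, 24 and 30 h; dashed lines are the medians of the sum. At 24 h the 10 cells with the most STMN2 all lie below the dashed line (4430 TPM), and at 6 h 4 of 10 do.

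Members varied together between cells. The correlation of a member with the sum of the others had a median of 0.49, 0.36, 0.43 and 0.55 at 6, 18, 24 and 30 h over the 37 passing members, against 0.15, 0.03, -0.01 and 0.09 for all passing genes. At 30 h PCNA (0.84), RRM2 (0.78), TK1 (0.75) and MCM7 (0.71) followed the others most closely, while CCNE2 (0.17) and POLA2 (0.18) did so least. In the shallow high-SOD1 cells the median was 0.22, 0.28, 0.22 and 0.08 at 0, 12, 36 and 48 h. The sum of the 38 members also followed that of the 40 further replication genes, with correlations of 0.73, 0.64, 0.80 and 0.85 at 6, 18, 24 and 30 h. With the sum of the mitosis genes it correlated by 0.31, 0.18, 0.34 and 0.50 at the same times. With the pan-neuronal genes other than STMN2 the values were -0.12, -0.19, -0.42 and -0.39, and with the pluripotent genes 0.56, 0.08, 0.14 and 0.60. The sum of the mitosis genes correlated with STMN2 by 0.31, 0.02, -0.18 and -0.15.

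In the high-SOD1 set the single members differed more, in both directions, and in shallower cells. At 12 h against 0 h their median log2 ratio was -0.28, against 0.13 for all passing genes, with 27 of 38 below the all-gene median. In odd-numbered cells alone the median turned to 0.16. GINS3 (-2.30), POLA1 (-1.87), RPA2 (-1.28) and RRM2 (-1.10) were at least 2-fold lower, where 11.8% of all genes were, and PRIM2 (-0.90), the large primase subunit, came next. This count of 4 was 13 with no cell left out and 2 in cells with at least 4000 genes. It was 7 in odd-numbered and 11 in even-numbered cells. The share of all genes was not counted under these settings, so the counts cannot be read against it. RFC4 (2.66), CDC45 (2.51) and E2F1 (1.92) were at least 2-fold higher, where 20.9% of all genes were. RFC4 was above 0 in 32.7% of cells at 12 h, against 43.2% at 0 h, and CDC45 in 28.8% at 12 h, against 40.5% at 0 h. A smaller share of cells thus carried the higher means. RRM2 averaged 222 ± 224 TPM at 12 h and 479 ± 465 TPM at 0 h (SD over 52 and 37 cells), with cells from 0 TPM over 141 TPM to 715 TPM at 12 h and from 29.1 TPM over 360.2 TPM to 2475 TPM at 0 h. The E2F1 value came from 1 cell with 840.3 TPM: without the highest cell of each time it was -0.17. E2F1 belongs to the factor family for which the promoter letters are named, and its own transcript was low at all times (1.35 to 17.8 TPM on average).

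The share of cells above 0 was at least 10 points lower at 12 h than at 0 h for 32 of 38 members, against 48.4% of all passing genes. PCNA was detected in 35 of 52 cells at 12 h (67.3%, exact interval 52.9 to 79.7%), against 37 of 37 cells at 0 h. Among the 2000 highest genes of a cell, 18 of 38 members were at least 10 points lower, against 14.9% of all genes. SLBP, RFC4 and CDC45 (3 of 38) were over 10 points higher, where 11.4% of all genes were at least 10 points higher. The median difference by this measure was -8.73 points for the members and 0.36 points for all genes. Of the fibroblast markers COL1A1, COL1A2, COL3A1 and THY1, COL3A1 was at 0 in all cells at 12 h and COL1A1 at 0 h. COL1A2 averaged 247 TPM at 12 h, against 51.3 TPM at 0 h, and the summed level of the 4 per cell ran from 0 TPM over 176 TPM to 770.0 TPM at 12 h and from 0 TPM over 26.1 TPM to 314 TPM at 0 h. The mean sum of the 4 mesoderm markers was 46.9 TPM at 12 h, against 12.8 TPM at 0 h, and that of the 6 primitive endoderm markers 21.4 TPM at 12 h, against 7.63 TPM at 0 h. The part of these lists in the comparison was not tested.

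At 36 h against 0 h the median of the members was -0.39, against 0.22 for all passing genes, and -0.59 to -0.72 under 3 other settings. There 7 members were at least 2-fold lower, where 22.7% of all genes were, and 4 at least 2-fold higher, where 30.1% were. CDT1 (-4.85), MCM6 (-4.73) and POLA1 (-4.18) were lowest, followed by GINS3 (-2.04) and PRIM2 (-1.89), while RFC4 (4.31), CDC45 (2.99) and CCNE2 (1.43) were highest. RFC4 and CDC45 were above 0 in 36.4% and 27.3% of cells at 36 h, against 43.2% and 40.5% at 0 h. CDT1 averaged 3.80 TPM at 36 h, against 137 TPM at 0 h. Its transcript was detected in 7 of 44 cells at 36 h (15.9%, exact interval 6.64 to 30.1%), against 35 of 37 at 0 h (94.6%, 81.8 to 99.3%). MCM6 averaged 4.04 TPM at 36 h and 132 TPM at 0 h. MCM7, of the same ring, had a higher mean, 620.1 TPM at 36 h against 347 TPM at 0 h, carried by few cells (up to 3967 TPM at 36 h). Its median was 65.0 TPM at 36 h, against 241 TPM at 0 h, and it was detected in 61.4% of cells at 36 h, against 97.3% at 0 h. Markers of other cell types had mean sums of 190.1 TPM at 36 h against 12.8 TPM at 0 h (mesoderm), 152 against 57.3 TPM (fibroblast) and 17.1 against 7.63 TPM (primitive endoderm), and their part was not tested.

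At 48 h against 0 h the median was -0.93, against -0.21 for all passing genes, and 22 of 38 lay below the all-gene median. Of the 38 members 18 were at least 2-fold lower, where 37.6% of all genes were, and 8 at least 2-fold higher, where 28.8% were. CDT1 (-5.46), CCNE1 (-5.09), GINS2 (-4.29), RPA2 (-3.54) and RFC5 (-3.40) were lowest, and RFC4 (5.15), RRM1 (2.79) and GINS3 (2.21) highest. CCNE1, the other E-type cyclin, averaged 3.82 TPM at 48 h, against 163 TPM at 0 h, with transcripts in 1 of 14 cells at 48 h, against 28 of 37 at 0 h. GINS3 at 48 h was above 0 in 1 of 14 cells (1207 TPM), and without the highest cell of each time its log2 ratio was -3.81. Over all 96 cells of each time, GINS2 stood at 1.77 and RPA2 at 0.19 instead. With 14 cells and a median of 2141 genes, single cells set many of these values, and the even-numbered cells alone gave a median of -3.56. The comparisons with 0 h share the 0 h cells.

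Among passing members RFC4 stood highest in 5 of the 6 comparisons and second in the other (E2F1, which did not pass in the low-SOD1 set, had a higher ratio at 18 h and 30 h). It averaged 159.5, 259, 291 and 198 TPM at 6, 18, 24 and 30 h, and 14.3, 95.6, 303 and 541 TPM at 0, 12, 36 and 48 h. In GENCODE M21 an exon of Rfc4 overlaps one of Eif4a2, a translation initiation factor on the other strand, and the use of strand in the counting is not stated, so reads of these genes cannot be told apart there. EIF4A2 averaged 139, 192, 165 and 140.1 TPM at 6, 18, 24 and 30 h, and 151, 188, 239 and 162 TPM at 0, 12, 36 and 48 h. In all, 14 of the 38 members share exon positions with another gene, 13 of them with an antisense one, among them POLE, ORC6 (with Vps35), TK1, CDC45, CCNE2 and MCM7. PCNA and TYMS have named pseudogenes that could take or add reads.

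The members with and without E2F letters in a promoter were set side by side. At 30 h against 6 h the 11 with a match had a median log2 ratio of -0.11 (from -0.79 to 0.63), and the 19 without one -0.31 (from -1.64 to 0.31). At 12 h against 0 h the order was the other way, with -0.48 for the 11 with a match and 0.00054 for the 20 without. Their median correlations with STMN2 at 24 h were -0.15 with a match and -0.21 without. These ranges overlapped widely, and MCM5, MCM6 and MCM3, whose promoters are printed above, had log2 ratios of -0.33, 0.04 and -0.18, against -0.47 for PCNA.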

How the data were processed

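RNA of single cells was read with SMART-Seq2 libraries, single-end reads of 50 bp and a stated average of 325000 reads per cell, per the labels' protocols. The authors deposited 1 table of TPM values, and its columns sum to 1000000 within rounding. Per the submitters' processing notes bcl2fastq, Picard and the mm10 genome were used. Nothing in the sources used here names the aligner, the annotation or the use of strand.

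Time points came from the labels. The members and lists were chosen with earlier results of these data known. Per time point the mean TPM over kept cells, the share of cells above 0 with an exact (Clopper-Pearson) 95% binomial interval, and Spearman correlations across cells were computed, with no p-value. Fold changes are log2 ratios of (mean + 1). TPM values keep no depth, so no read-count floor can be given. Cells within a time point may share cultures, so every SD is between cells of 1 sample. All members were counted. Named with values were, per comparison, the 5 lowest and 3 highest passing members, those highest in their role, the 4 lowest and 4 highest correlations with STMN2 at 24 h and 30 h (the main ones are printed), and up to 3 genes of each other list. Others, such as MCM2, MCM7 at 36 h, TYMS, CDC45 by share of cells, EIF4A2 and the promoters shown, were chosen after their values were seen. Overlaps came from GENCODE M21 and promoters from RefSeq (GRCm38.p6). Alternatives were pseudocounts of 0.1 and 10, other filters, rescaling, other cell minimums, odd-numbered or even-numbered cells, means without the highest cell and partial correlations. The functions were tested on simulated data. The scripts ran under Python 3.11.15 with scipy 1.17.1, pandas 2.3.3, numpy 2.4.6 and matplotlib 3.10.9.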

Additional observations from a re-analysis of the deposited data

How the results depend on the processing

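The shift at 30 h against 6 h kept its direction under the alternatives run. Its median log2 ratio (-0.26) was -0.23 with a pseudocount of 10, -0.48 with all genes rescaled to a median of 0, -0.41 with no cell left out, -0.24 in cells with at least 4000 genes and -0.23 in odd-numbered cells. Members at least 2-fold lower (1) numbered 2 with a pseudocount of 0.1, 4 when rescaled and 4 with no cell left out. They numbered 2 in even-numbered cells, 2 in odd-numbered ones and 2 with each gene's highest cell removed. No share of all genes was counted under these alternatives. The ratio of mean sums (0.774) was 0.787 with no cell left out, 0.776 in cells with at least 4000 genes, 0.770 in even-numbered cells, 0.767 without the highest cell and 0.829 without POLA2. The median difference in share of cells was -12.5 points among the 2000 highest genes and -11.1 points at 10 TPM or more.

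The median at 24 h against 6 h (0.02) turned to -0.23 when rescaled, -0.15 in cells with at least 4000 genes, -0.27 in even-numbered cells and -0.012 with each gene's highest cell removed. The median at 12 h against 0 h turned to 0.16 in odd-numbered cells, and the ratio of sums (0.836) to 1.02 in cells with at least 4000 genes. Members at least 2-fold lower there (4) numbered 13 with no cell left out and 2 in cells with at least 4000 genes. They numbered 7 in odd-numbered and 11 in even-numbered cells, again with no share of all genes counted. At 12 h against 0 h the median difference in shares was -8.73 points among the 2000 highest genes. It was -12.7 points at 10 TPM or more. The median at 36 h against 0 h (-0.39) was -0.61 when rescaled, -0.59 in even-numbered cells and -0.72 with each gene's highest cell removed, and at 48 h it was -3.56 in even-numbered cells.

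The median correlation with STMN2 turned to 0.37 at 24 h and 0.41 at 30 h with no cell left out. It was -0.23 in odd-numbered cells and -0.12 as Pearson's r at 24 h. At 12 h (0.01) it turned to -0.032 in cells with at least 4000 genes, -0.086 in odd-numbered cells and -0.0012 as Pearson's r.

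Of single members, MCM10 at 18 h turned to 0.043 with no cell left out, E2F1 at 12 h to -1.98 with no cell left out, -1.45 in odd-numbered cells and -0.17 without its highest cell, GINS2 at 48 h to 1.77 and RPA2 at 48 h to 0.19 with no cell left out, and GINS3 at 48 h to -4.38 in even-numbered cells and -3.81 without its highest cell. The causes were not tested. Of the other values 277 single-member and 92 summary values stayed within the spread between odd-numbered and even-numbered cells (counts within 1.5 times), and 83 single-member values left it without a change of sign past 2-fold. Cells with at least 4000 genes could not be used at 36 h and 48 h, which have none. Detection was low in the high-SOD1 set, where HPRT, a gene used by every cell, was above 0 in 7.14% to 20.5% of cells, against 59.6% to 67.9% in the low-SOD1 set. These shares did not follow the number of detected genes within the high-SOD1 set, and the cause was not tested.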

Other observations

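Among 12 G1 cyclins and inhibitors, the 8 that passed at 30 h against 6 h had a median log2 ratio of 0.59, against 0.22 for all passing genes. CCND2 (2.48) and CCND3 (1.81), D-type cyclins of G1, and CDKN1B (1.59), the inhibitor p27, were at least 2-fold higher, 3 of 8, against 14.3% of all genes, while CCND1 stood at -0.42. CCND2 averaged 26.6, 53.4, 76.6 and 153 TPM at 6, 18, 24 and 30 h, and CDKN1B averaged 4.20, 14.7, 12.5 and 14.7 TPM at the same times. Of 16 other regulators of S phase 11 passed, with a median of 0.01, and E2F8 (-1.31), a repressor of the E2F family, averaged 4.73 TPM at 30 h and 13.2 TPM at 6 h, while E2F6 had a log2 ratio of 1.00.

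The row ORC1L, which RefSeq gives as a synonym of ORC1, was not counted as a member. It averaged 22.9, 17.6, 19.1 and 14.9 TPM at 6, 18, 24 and 30 h, and was detected in 25 of 57 cells at 30 h (43.9%, exact interval 30.7 to 57.6%), against 39 of 53 at 6 h (73.6%, 59.7 to 84.7%).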
